A study of Mus musculus with 4 samples.

Results

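The KLF transcription factors (Krüppel-like factors) described here are 8 genes, Klf2, Klf3, Klf4, Klf6, Klf7, Klf10, Klf12 and Klf13, found among the 24452 genes of the deposited table by their symbols, which it writes in capitals (KLF2, KLF3, KLF4, KLF6, KLF7, KLF10, KLF12 and KLF13). The table lists 17 KLF genes in all, and these 8 are taken from it by symbol, a choice made with earlier results of these data known. They were measured by RNA sequencing in Tregs of the mouse liver, regulatory CD4 T cells that hold immune responses in check. Altre-KO Tregs, from young mice in which the Treg long non-coding RNA Altre was knocked out, gave 2 libraries, and Altre-WT Tregs, from young mice with the wild-type genotype, gave 2. The comparison bears on what the loss of Altre does to the Treg transcriptome. The sources used here do not give strain, sex, exact age or the way Altre was removed, and no treatment is named for either genotype. Whether each library came from its own mouse is not stated in the labels, so the p-values measure a spread that may be technical. In bulk RNA, fewer cells that carry a transcript and less of it per cell cannot be told apart.

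KLF proteins bind DNA through zinc fingers at their carboxyl end and recognise GC-rich sequences and CACCC boxes. They fall into groups by the partners of the rest of the protein: Klf2, Klf4, Klf6 and Klf7 belong to the group that works largely with acetyltransferases, Klf3 and Klf12 bind the corepressor CtBP, and Klf10 and Klf13 bind the corepressor Sin3a. In T cells the family is known above all for Klf2, which keeps resting cells quiescent and maintains the receptors of T cell trafficking, and which is turned down when the T cell receptor is engaged.

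Gene levels are in CPM, reads per library scaled so that its listed genes add up to a fixed sum. The Altre-KO libraries held an estimated 3266130 and 2361930 reads on listed genes and the Altre-WT libraries 1828770 and 2378950, which makes 1 read equal to 0.306 to 0.547 CPM. Altre-KO replicate 1 stood apart in the share of its reads that lay on listed genes, 32.8%, against 21.5% in the other Altre-KO library and 18.8% and 20.6% in the Altre-WT libraries. Altre itself was not analysed here, and the genotypes are those of the labels. The labelled cell type was checked with 7 Treg and T cell markers, which summed to 2740 and 2842 CPM in Altre-KO and to 2822 and 2816 CPM in Altre-WT. Among them Foxp3, the defining Treg transcription factor, was at 79.5 and 162 CPM in Altre-KO and at 160.4 and 140.5 CPM in Altre-WT. Markers of hepatocytes summed to 1.69 CPM or less in every library and those of CD8 T cells to 9.25 CPM or less. Those of B cells summed to between 27.1 and 38.3 CPM, and those of myeloid cells to between 118.5 and 233 CPM. Genotypes were compared with limma on log2(CPM + 1) over the 10486 genes that reached 10 estimated reads in at least 2 libraries, where reads are taken at the median depth. All 8 KLF genes passed that filter.

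None of the 8 KLF genes passed an adjusted p of 0.05 between genotypes, where 0.0381% of all tested genes did (4 of 10486, all lower in Altre-KO). limma-voom on estimated reads likewise called none of the 8. Klf6 had the clearest difference, with both Altre-KO libraries below both Altre-WT libraries, and Klf2 was the other gene whose genotypes did not overlap, also with the lower values in Altre-KO. For the other 6 genes the genotypes overlapped. By the fitted log2 fold change 6 of the 8 were lower in Altre-KO and 2 higher, with a median of -0.09. Over all tested genes 52.1% were lower and the median was -0.01. Non-overlapping genotypes, found for 2 of the 8, occurred for 30.8% of all tested genes, and for 16.1% with the lower values in Altre-KO. The split of 6 lower and 2 higher became 3 and 5 without Altre-KO replicate 1 and 4 and 4 without Altre-WT replicate 1.

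**Figure D1:**
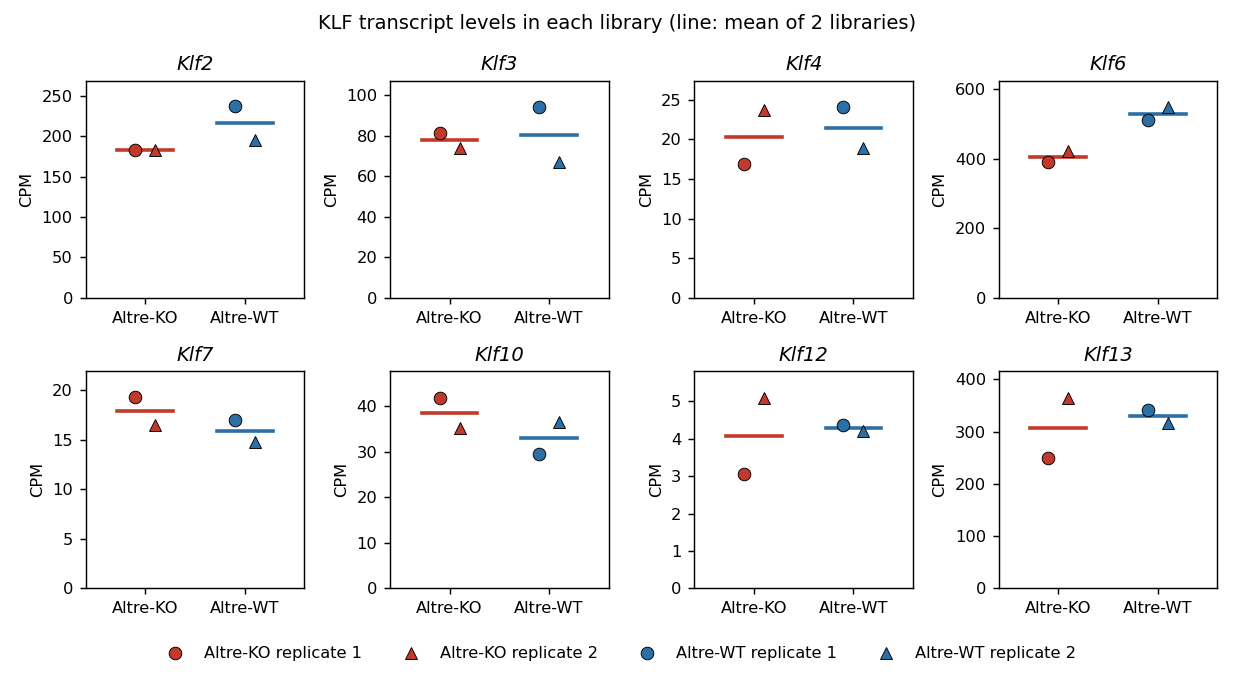
CPM of each of the 8 KLF genes in each library, with Altre-KO on the left and Altre-WT on the right of every panel, 1 point per library and a line at the mean of the 2 libraries. The genotypes are separate for Klf6 (389.8 and 423 CPM in Altre-KO, 511 and 549 CPM in Altre-WT) and for Klf2, and overlap in the other panels.

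Klf6 (chromosome 13, 5861482 to 5870394, plus strand; GRCm38 coordinates from GENCODE M21 here and below) encodes a widely expressed factor that is induced early by many stimuli and is known to activate the cell cycle inhibitor gene Cdkn1a. It was at 389.75 and 422.96 CPM in Altre-KO and at 510.72 and 548.56 CPM in Altre-WT, from 934 to 1305 estimated reads per library. The gap between the genotypes, 423 against 511 CPM at its narrowest, exceeded the gap between the libraries of either genotype. The mean in Altre-KO was 0.767 times that in Altre-WT. The log2 fold change was -0.38 (SE 0.14, 95% interval -0.68 to -0.08, limma adjusted p = 0.999, unadjusted 0.0147), and it lay between -0.44 and -0.32 when each library was left out in turn. An unadjusted p under 0.05 was reached by 1 of the 8 KLF genes, against 3.66% of all tested genes, and by that p Klf6 ranked 99 among the 10486. The authors' deposited table gives Klf6 a log2 fold change of -0.38, a p of 0.0166 and an adjusted p of 1.

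Klf2 (chromosome 8, 72319033 to 72321656, plus strand), the quiescence and trafficking factor of T cells, was at 183.09 and 182.90 CPM in Altre-KO and at 236.77 and 195.46 CPM in Altre-WT. The Altre-KO libraries were almost equal, and the lower Altre-WT library lay close above them. The log2 fold change was -0.23 (SE 0.16, 95% interval -0.57 to 0.10, limma adjusted p = 0.999). As a fold this interval runs from 0.674 to 1.08. The value was -0.09 without Altre-WT replicate 1 and -0.37 without Altre-WT replicate 2. Within a library, the ratio of Klf6 CPM to Klf2 CPM, which is not corrected for length, was 2.13 and 2.31 in Altre-KO and 2.16 and 2.81 in Altre-WT, so it overlapped between genotypes.

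Klf4 (chromosome 4, 55527143 to 55532466, minus strand), a growth-arrest factor and one of the factors that reprogram cells to pluripotency, was at 16.84 and 23.71 CPM in Altre-KO and at 24.06 and 18.92 CPM in Altre-WT. Each genotype had 1 lower and 1 higher library. Its log2 fold change of -0.09 (95% interval -0.78 to 0.60) turned to 0.15 without Altre-KO replicate 1 and to 0.08 without Altre-WT replicate 1. Klf7 (chromosome 1, 64029447 to 64122282, minus strand), best known for neuronal development, was at 19.29 and 16.51 CPM in Altre-KO and at 16.95 and 14.71 CPM in Altre-WT. Its log2 fold change was 0.17 (95% interval -0.57 to 0.90), with the lower Altre-KO library just under the higher Altre-WT library. Its longest transcript shares 2826 bases with Gm26649, a long non-coding RNA gene on the opposite strand that was not analysed here, so without stranded counting reads of the pair cannot be told apart. Genes on the opposite strand also overlap the bounds of Klf3, Klf12 and Klf13, and the same limit holds there. On the same strand, C230096K16Rik overlaps the bounds of Klf3 and the microRNA gene Mir6899 those of Klf7. Stranded counting would not separate these. In a search of the mouse transcripts for shared stretches of at least 100 bases at 95% identity, Klf3 matched 68 other genes, over 405 bases at most, and Klf12 matched 7. The longest Klf12 match covered 524 bases of a transcript of 832 bases and was to Fmo1. Klf2, Klf4, Klf6, Klf10 and Klf13 matched none.

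Of the genes whose proteins bind CtBP, Klf3 (chromosome 5, 64803388 to 64832901, plus strand) was at 81.44 and 74.09 CPM in Altre-KO and at 94.05 and 66.84 CPM in Altre-WT. Both Altre-KO values lay between the Altre-WT values. The log2 fold change was -0.03 (95% interval -0.46 to 0.40), and it was 0.0005 with median-of-ratios scaling and 0.21 without Altre-WT replicate 1. Klf12 (chromosome 14, 99870632 to 100284679, minus strand), a repressor first described at the gene of the factor AP-2 alpha, was at 3.06 and 5.08 CPM in Altre-KO and at 4.37 and 4.20 CPM in Altre-WT. These values rest on 10 and 12 estimated reads in Altre-KO and on 8 and 10 in Altre-WT. Its log2 fold change of -0.09 had a 95% interval of -1.35 to 1.17, or 0.393 to 2.25 as a fold. That interval holds both signs, so these few reads do not fix the direction or size of a difference. Without Altre-KO replicate 1 the log2 fold change was 0.20.

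Of the genes whose proteins bind Sin3a, Klf10 (chromosome 15, 38291463 to 38300706, minus strand), the TGF-beta-inducible early gene that is known in mice to support Foxp3 and Treg function, was at 41.95 and 35.14 CPM in Altre-KO and at 29.53 and 36.57 CPM in Altre-WT. The lower Altre-KO library lay under the higher Altre-WT library. The log2 fold change was 0.22 (SE 0.27, 95% interval -0.33 to 0.77, limma adjusted p = 0.999), and it ranged from 0.07 without Altre-WT replicate 1 to 0.37 without Altre-WT replicate 2. Klf13 (chromosome 7, 63886351 to 63938915, minus strand), known in human T cells as an activator of the chemokine gene CCL5, was at 250.14 and 364.95 CPM in Altre-KO and at 341.21 and 316.94 CPM in Altre-WT. The Altre-KO libraries held both the lowest and the highest value. The SD in Altre-KO was 81.2 CPM around a mean of 308 CPM, against 17.2 CPM around 329 CPM in Altre-WT (n = 2 each). The log2 fold change was -0.12 (95% interval -0.47 to 0.23), and it was 0.15 without Altre-KO replicate 1 and -0.39 without Altre-KO replicate 2.

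**Figure D2:**
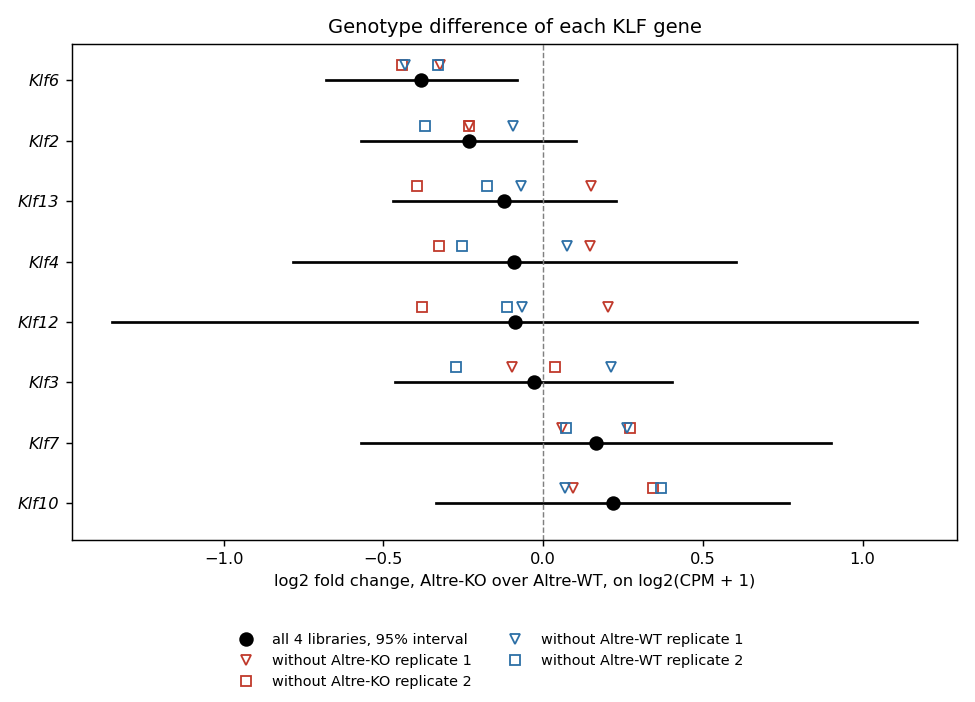
Log2 fold change of each KLF gene, Altre-KO over Altre-WT, on the log2(CPM + 1) scale, with all 4 libraries (black point and 95% interval from limma) and with each library left out (open symbols). The Klf6 interval, -0.68 to -0.08, leaves out 0, and Klf13, Klf4, Klf12 and Klf3 have open symbols on both sides of 0.

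The log2 fold changes of the 8 genes ran from the 11.3rd percentile of all tested genes, for Klf6, to the 81.3rd, for Klf10. In Altre-KO the summed CPM of the 8 genes was 986 and 1125, and in Altre-WT it was 1258 and 1202. These sums rest mostly on the reads of Klf6, Klf13 and Klf2, which gave between 83.5% and 88.3% of the reads of the 8 in a library.

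**Figure D3:**
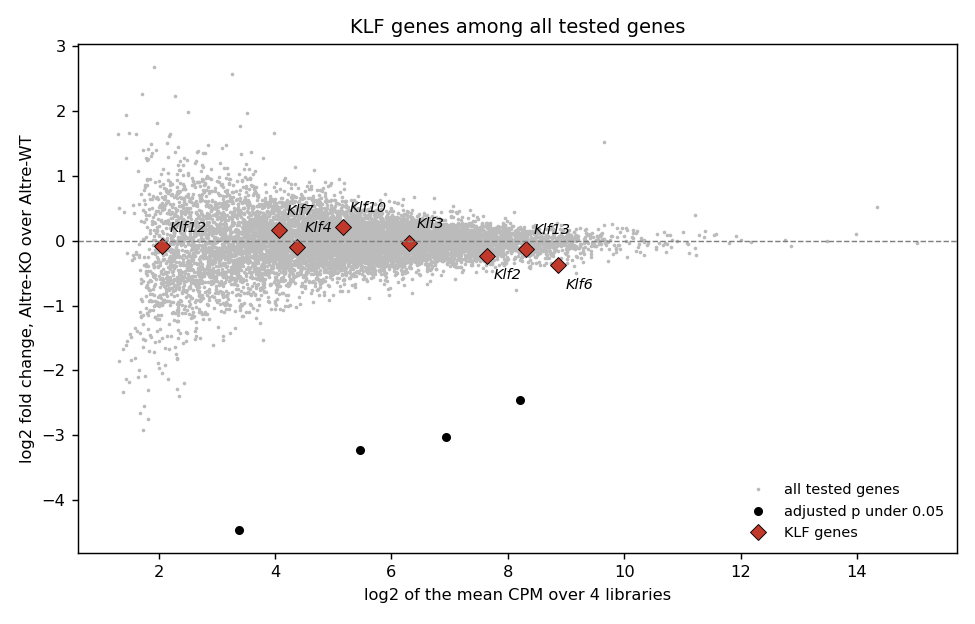
Log2 fold change, Altre-KO over Altre-WT, against the log2 of the mean CPM over the 4 libraries, for the 10486 tested genes (grey), those past an adjusted p of 0.05 (black) and the KLF genes (red diamonds). The KLF genes lie between -0.38 and 0.22, inside the grey cloud, while the 4 black points lie below it.

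Levels were compared between the genes per kb of merged exons. Klf2 and Klf6 were highest, at a mean of 108 and 107 CPM per kb over the 4 libraries, and their ranges overlapped (99.0 to 128 and 88.8 to 125). Klf13 followed at 42.3 CPM per kb (33.2 to 48.5), below both in every library. Klf10 (8.57 CPM per kb), Klf3 (7.04) and Klf4 (6.85) came next, and each overlapped its neighbour in this order. Klf7 stood below them at 2.07 CPM per kb (1.81 to 2.37), and Klf12 was lowest at 0.598 CPM per kb (0.438 to 0.727). With the length of the longest transcript in place of merged exons, 4 of the 8 genes changed places, Klf6 with Klf2 and Klf3 with Klf10. Klf3 was then at 15.2 CPM per kb and Klf10 at 11.8 CPM per kb.

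**Figure D4:**
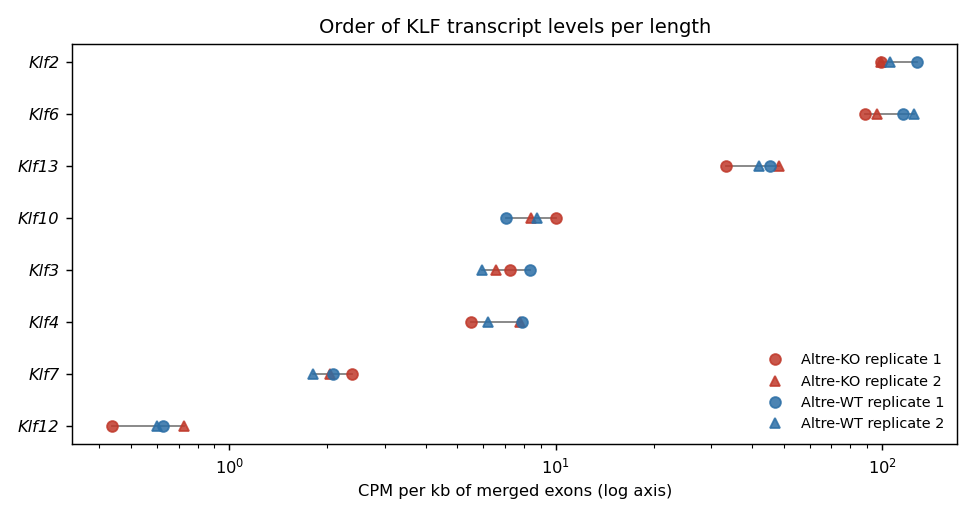
CPM per kb of merged exons of the 8 KLF genes on a log axis, 1 point per library, with Altre-KO in red and Altre-WT in blue and a grey line over the range of the 4 libraries. Klf2 and Klf6 overlap near 100 CPM per kb (99.0 to 128 and 88.8 to 125), and Klf12 is lowest, between 0.438 and 0.727 CPM per kb.

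Promoter sequences (RefSeq, GRCm38.p6; 250 bases before to 50 bases after the annotated start) were found for 7 of the 8 genes, all but Klf10. The 2 genes whose genotypes did not overlap, Klf2 and Klf6, are shown beside Klf13, the next in level, and Klf12, the lowest. Each is written 5′ to 3′ on the gene's strand, and capitals mark the boxes that KLF and SP factors are known to bind, CACCC and the GC box GGGCGG, on either strand.
Klf2, chr8:72318812-72319111, plus strand: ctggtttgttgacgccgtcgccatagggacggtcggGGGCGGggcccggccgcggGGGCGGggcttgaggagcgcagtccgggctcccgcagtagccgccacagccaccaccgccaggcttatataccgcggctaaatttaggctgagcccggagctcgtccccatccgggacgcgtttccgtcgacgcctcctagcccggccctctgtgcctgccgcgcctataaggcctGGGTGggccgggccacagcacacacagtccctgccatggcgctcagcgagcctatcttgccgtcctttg
Klf6, chr13:5861239-5861538, plus strand: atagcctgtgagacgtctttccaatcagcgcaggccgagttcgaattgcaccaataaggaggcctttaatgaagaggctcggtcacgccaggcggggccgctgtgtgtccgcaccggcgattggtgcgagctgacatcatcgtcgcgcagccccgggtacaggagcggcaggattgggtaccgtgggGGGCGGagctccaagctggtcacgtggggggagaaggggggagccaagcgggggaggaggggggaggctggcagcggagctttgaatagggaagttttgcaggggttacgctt
Klf13, chr7:63938866-63939165, minus strand: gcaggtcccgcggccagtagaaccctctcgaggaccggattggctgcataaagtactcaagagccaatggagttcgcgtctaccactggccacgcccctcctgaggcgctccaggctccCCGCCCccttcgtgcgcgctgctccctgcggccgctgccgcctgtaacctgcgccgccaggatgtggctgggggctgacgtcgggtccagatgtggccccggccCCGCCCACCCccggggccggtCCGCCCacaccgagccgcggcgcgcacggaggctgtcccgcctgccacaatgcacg
Klf12, chr14:100149747-100150046, minus strand: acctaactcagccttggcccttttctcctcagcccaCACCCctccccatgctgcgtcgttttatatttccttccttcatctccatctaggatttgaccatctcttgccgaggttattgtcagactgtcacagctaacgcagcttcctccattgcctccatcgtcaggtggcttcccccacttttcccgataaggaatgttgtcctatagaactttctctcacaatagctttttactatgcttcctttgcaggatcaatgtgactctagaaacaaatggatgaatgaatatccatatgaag
The Klf12 window lies inside the GENCODE M21 gene, whose own start is further upstream, so another start of this gene is not covered by it. The same holds for the Klf7 window, which is counted below but not shown. The windows differ in base composition: GC made up 69.3% of the Klf2 window, 63.0% for Klf6, 72.0% for Klf13 and 45.7% for Klf12, against a median of 52.7% over 32851 promoters. CACCC was in 5 of the 7 windows and in 57.5% of all promoters, and Klf6 and Klf4 had none. GGGCGG was in 6 of the 7, all but Klf12, and in 35.7% of all promoters, with 2 sites at Klf2, 1 at Klf6, 3 at Klf13 and 6 at Klf3. In Klf13 and Klf3 a CACCC and a GGGCGG share bases. CCAAT was found at Klf6 (4 sites) and Klf13 (2 sites) and in 37.4% of all promoters. TATAAA was found at Klf12 alone and in 13.6% of all promoters. The FOXO motif GTAAACA, the cyclic AMP response element TGACGTCA and the YY1 motif CCATNTT, searched on both strands as the others were, were in none of the 7 windows and in 3.65%, 1.79% and 16.1% of all promoters. Klf2 and Klf6, which lay on the same side of wild type, shared GGGCGG among these motifs and differed in CACCC and CCAAT. A match is a description of letters and not a binding site, and the genotype difference was not tested against any motif.

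The other 9 KLF genes of the table included 3 that passed the filter on low values, and none of these passed the test. Klf9, a glucocorticoid-responsive relative, was at 23.6 and 22.9 CPM in Altre-KO and at 30.6 and 29.9 CPM in Altre-WT (log2 fold change -0.37, 95% interval -0.97 to 0.24). Klf11 was at 7.35 and 15.2 CPM in Altre-KO and at 9.84 and 13.5 CPM in Altre-WT, and Klf16 at 38.3 and 38.5 CPM in Altre-KO and at 38.8 and 34.1 CPM in Altre-WT. The direction of Klf11 turned without Altre-KO replicate 1 (log2 fold change 0.38) and without Altre-WT replicate 2 (0.10). Below the filter, Klf15 had 0 estimated reads in both Altre-KO libraries and 5 and 3 in the Altre-WT libraries, Klf17 had 0 and 1 in Altre-KO and 3 and 2 in Altre-WT, and Klf5 had 1 and 0 in Altre-KO and 2 and 5 in Altre-WT. Klf14 had 1 read in each Altre-KO library and 1 and 8 in the Altre-WT libraries, so its lower Altre-WT library was tied with Altre-KO in reads. Klf8, with 17 and 5 reads in Altre-KO and 4 and 8 in Altre-WT, and Klf1, the erythroid factor, with 0 and 3 in Altre-KO and 1 and 1 in Altre-WT, overlapped. With so few reads no fold is given for these 6 genes.

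SP factors, the relatives that bind the same GC boxes, had 5 of 9 genes tested, of which 4 were higher and 1 lower in Altre-KO (median log2 fold change 0.11), and none passed the test. Sp1 was at 283 and 367 CPM in Altre-KO and at 394 and 371 CPM in Altre-WT (log2 fold change -0.25). Sp3 was at 517 and 417 CPM in Altre-KO and at 369 and 457 CPM in Altre-WT (0.18), and Sp6 at 53.3 and 55.4 CPM in Altre-KO and at 57.1 and 37.2 CPM in Altre-WT (0.23, and -0.07 without Altre-WT replicate 2). Sp1 was lowest in Altre-KO replicate 1, as Klf13 was, and was at -0.06 without that library.

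Among signalling genes upstream of Klf2, which run from phosphatidylinositol 3-kinase and AKT to the FOXO factors and from MEK5 and ERK5 to the MEF2 factors, none of 11 tested passed, and 5 were higher and 6 lower (median log2 fold change -0.02). Foxo1, which is known to drive Klf2 transcription in T cells, was at 135 and 179.5 CPM in Altre-KO and at 153 and 139.6 CPM in Altre-WT. Mef2a was at 70.4 and 81.3 CPM in Altre-KO and at 84.2 and 107 CPM in Altre-WT. Its log2 fold change was -0.32, and -0.15 without Altre-WT replicate 2. Foxo3 was at 55.4 and 54.2 CPM in Altre-KO and at 64.0 and 64.7 CPM in Altre-WT (-0.23), and Map2k5, the gene of MEK5, at 17.5 and 18.6 CPM in Altre-KO and at 19.1 and 11.4 CPM in Altre-WT (0.27, and -0.08 without Altre-WT replicate 2). Mef2a and Foxo3, 2 of the 11 genes, lay lower in Altre-KO without overlap, against 16.1% of all tested genes. Foxo1 was chosen after its values were seen.

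Ubiquitin ligases known to act on KLF proteins or their relatives had 3 of 5 higher and 2 lower, with none past the test and a median of 0.09. Fbxw7, whose ligase is known to degrade KLF2, was at 56.0 and 66.9 CPM in Altre-KO and at 49.2 and 53.8 CPM in Altre-WT (log2 fold change 0.25, 95% interval -0.22 to 0.71). Itch, whose ligase acts on KLF10, was at 184 and 164 CPM in Altre-KO and at 158 and 164 CPM in Altre-WT, and Wwp1 was at 69.2 and 71.1 CPM in Altre-KO and at 72.2 and 80.7 CPM in Altre-WT. Cofactors had 7 of 10 higher and 3 lower, a median of 0.07 and none past the test. Ctbp1, the corepressor gene for Klf3 and Klf12, was at 279 and 232 CPM in Altre-KO and at 257 and 234 CPM in Altre-WT. Sin3a, the one for Klf10 and Klf13, was at 126 and 157.5 CPM in Altre-KO and at 135 and 137 CPM in Altre-WT. Ctbp1 and Sin3a were chosen after their values were seen. Sin3b was at 177 and 139.7 CPM in Altre-KO and at 139 and 144 CPM in Altre-WT. The acetyltransferase gene Ep300 was at 86.3 and 171 CPM in Altre-KO and at 166 and 157 CPM in Altre-WT (log2 fold change -0.41, and 0.08 without Altre-KO replicate 1). Its relative Crebbp was at 108 and 214 CPM in Altre-KO and at 189 and 188 CPM in Altre-WT (-0.31, and 0.18 without Altre-KO replicate 1).

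The trafficking genes that Klf2 or Foxo1 is known to control were not called in either direction. Of 8 tested, 4 were higher and 4 lower (median log2 fold change -0.01). S1pr1, the egress receptor and best-known Klf2 target, was at 443 and 389.9 CPM in Altre-KO and at 399 and 385 CPM in Altre-WT (log2 fold change 0.08, 95% interval -0.22 to 0.39). S1pr1 was chosen after its values were seen, since its p did not rank among the smallest 3. The interleukin-7 receptor gene Il7r was at 202 and 241 CPM in Altre-KO and at 278 and 269 CPM in Altre-WT (-0.31, 95% interval -0.63 to 0.02), and the chemokine receptor gene Cxcr3 at 65.8 and 72.8 CPM in Altre-KO and at 82.0 and 84.5 CPM in Altre-WT (-0.26). These 2 of the 8 genes lay lower in Altre-KO without overlap, against 16.1% of all tested genes. Il7r was at -0.18 without Altre-KO replicate 1. The gut-homing integrin gene Itgb7 was at 1328 and 1061 CPM in Altre-KO and at 1142 and 1041 CPM in Altre-WT (0.12, and -0.04 without Altre-KO replicate 1).

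Growth control and cytokine genes known as KLF targets had 4 of 7 higher and 3 lower (median log2 fold change 0.11), and none passed the test. Cdkn1a, the inhibitor gene linked to Klf4 and Klf6, did not reach the filter, with 0.00 and 2.54 CPM in Altre-KO and 2.19 and 0.00 CPM in Altre-WT. Cdkn1b, the inhibitor gene known as a FOXO and KLF2 target, was at 318 and 308 CPM in Altre-KO and at 298 and 282 CPM in Altre-WT (0.11), and both were chosen after their values were seen. The D cyclin gene Ccnd3 was at 103 and 103 CPM in Altre-KO and at 92.3 and 78.7 CPM in Altre-WT (0.27), and Ccnd2 at 274 and 315 CPM in Altre-KO and at 342 and 331 CPM in Altre-WT (-0.19). Ccl5, the chemokine gene linked to Klf13, was at 5.51 and 5.08 CPM in Altre-KO and at 7.11 and 0.84 CPM in Altre-WT, so its value rested on Altre-WT replicate 2 (log2 fold change 0.70, and -0.37 without it).

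In the TGF-beta pathway, which induces Klf10 and in which Klf10 acts on Smad7, 5 of 8 genes were lower and 3 higher (median log2 fold change -0.15), and none passed the test. Foxp3 had a log2 fold change of -0.40, and of 0.11 without Altre-KO replicate 1. Tgfb1, the ligand gene, was at 26.9 and 41.1 CPM in Altre-KO and at 42.7 and 42.9 CPM in Altre-WT (-0.35, and -0.06 without Altre-KO replicate 1). Tgfbr2, a receptor gene, was at 277 and 362 CPM in Altre-KO and at 361 and 372 CPM in Altre-WT (-0.21, and -0.02 without Altre-KO replicate 1).

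**Figure D5:**
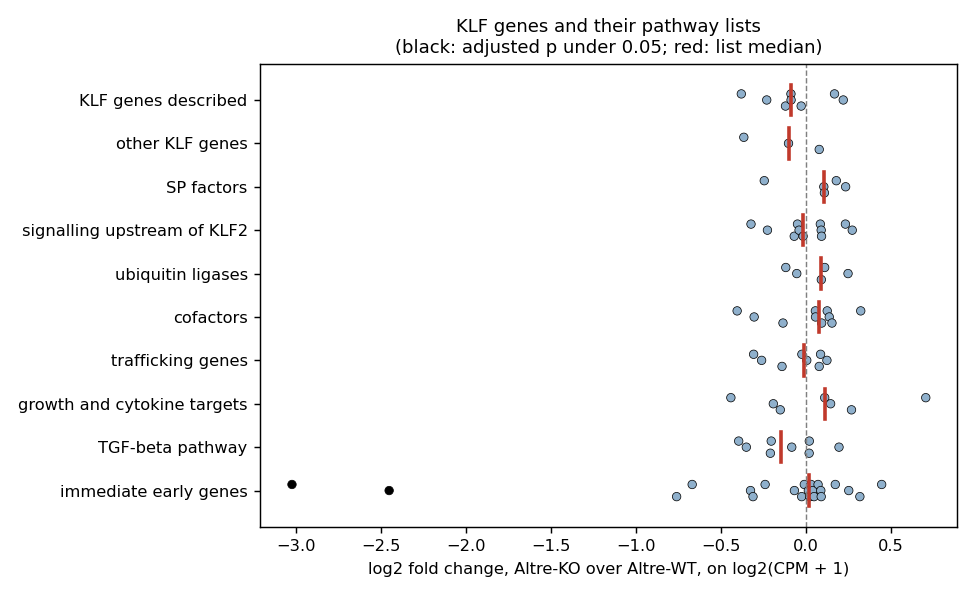
Log2 fold change, Altre-KO over Altre-WT, of every tested gene in the KLF lists, 1 point per gene, with black points past an adjusted p of 0.05 and a red line at each list's median. Medians lie between -0.15 and 0.11, and the 2 black points, Hspa1a (-3.03) and Hspa1b (-2.45), belong to the immediate early and dissociation-response list.

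Klf6, Klf2, Klf4 and Klf10 are also known as early-response genes that cell isolation can raise, so immediate early and dissociation-response genes are given beside them. Of 23 listed, 22 were tested, and 12 were higher and 10 lower (median log2 fold change 0.02). The inducible chaperone genes Hspa1a and Hspa1b fell (limma adjusted p = 1.08e-05 and 4.26e-06), and no other gene of the list passed. Hspa1a was at 17.8 and 29.8 CPM in Altre-KO and at 117 and 325 CPM in Altre-WT, and Hspa1b at 81.1 and 87.4 CPM in Altre-KO and at 309 and 702 CPM in Altre-WT. They are close copies of each other, so their separate values are uncertain. The AP-1 gene Fos was at 170.2 and 249 CPM in Altre-KO and at 306 and 401 CPM in Altre-WT (log2 fold change -0.76, limma adjusted p = 0.683, 0.0346 with the replicate number as a block and 0.0415 without Altre-KO replicate 2). Of the 22 genes, 5 had an unadjusted p under 0.05, against 3.66% of all tested genes, and 12 had genotypes that did not overlap (7 lower and 5 higher in Altre-KO), against 30.8% of all tested genes. Fosb, another AP-1 gene, was at 72.3 and 78.3 CPM in Altre-KO and at 113 and 129 CPM in Altre-WT (log2 fold change -0.67, limma adjusted p = 0.999, unadjusted 0.00167). Jun, Dusp1 and Dnajb1 also lay lower in Altre-KO without overlap, as Klf6 did (log2 fold changes -0.24, -0.33 and -0.31). Dusp2, Ier2, Hspa8, Ier5 and Nr4a1 lay higher in Altre-KO without overlap (0.44, 0.32, 0.25, 0.17 and 0.09). Of the genes named so far from this list, all but Fos, Hspa1a and Hspa1b were chosen after their values were seen. The summed level of the 23 genes was 7293 and 6948 CPM in Altre-KO and 7475 and 7931 CPM in Altre-WT. Without Hspa1a and Hspa1b it was 7194 and 6830 CPM in Altre-KO and 7049 and 6904 CPM in Altre-WT, which overlap, and Junb, Hspa8 and Jund were the largest contributors in every library. The part of these genes in the Klf6 and Klf2 values was not tested.

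Klf2 and Klf4 are abundant in endothelial cells and Klf4 in monocytes, so the markers of these cells are given as well. The 8 endothelial markers summed to 176 and 213 CPM in Altre-KO and to 185 and 224 CPM in Altre-WT. Nearly all of that was Pecam1, which leukocytes also carry, at 174 and 208 CPM in Altre-KO and at 172 and 215 CPM in Altre-WT. The endothelial cadherin gene Cdh5 was at 2.94 CPM or less in every library, and Emcn was at 0 in all 4. Stab2, a marker of liver sinusoidal endothelium, was at 0.92 and 1.27 CPM in Altre-KO and at 6.02 and 5.04 CPM in Altre-WT. It lay lower in Altre-KO without overlap, as Klf2 and 16.1% of all tested genes did. Clec4g, another sinusoidal marker, was at 0 in both Altre-KO libraries and at 1.09 and 0.42 CPM in Altre-WT. Kdr was at 0.31 and 0 CPM in Altre-KO and at 1.09 and 0 CPM in Altre-WT, which overlap. Vwf, at 0.31 and 1.27 CPM in Altre-KO and at 3.83 and 0 CPM in Altre-WT, overlapped too. With 1 read equal to 0.306 to 0.547 CPM, these values rest on few reads, and Stab2 reached 4.22 CPM in Altre-WT alone. Stab2, Clec4g, Kdr and Vwf were chosen after their values were seen. The part of these markers in the Klf2 values was not tested. The 6 myeloid markers summed to 227 and 118.5 CPM in Altre-KO and to 143 and 233 CPM in Altre-WT, so they overlapped between genotypes, led by the lysozyme gene Lyz2 at 165 and 66.1 CPM in Altre-KO and at 102 and 155 CPM in Altre-WT. Klf4 was at 16.84 and 23.71 CPM in Altre-KO and at 24.06 and 18.92 CPM in Altre-WT, from 44 to 56 estimated reads per library. The part of the myeloid markers in the Klf4 values was not tested.

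By the distance between centred log2(CPM + 1) values over the 4 libraries, the genes most like Klf6 among 6931 tested genes with a mean of at least 20 CPM were Cand2 (distance 0.03), Tpp1 (0.03) and Ipo9 (0.06). With a pseudocount of 5 in place of 1 the distance of Cand2 was 0.07. Tpp1, which encodes a lysosomal peptidase, was at 21.7 and 24.1 CPM in Altre-KO and at 29.0 and 31.9 CPM in Altre-WT. The genes most like Klf13 were Pcnx3 (0.02), Hivep2 (0.05) and Trim56 (0.05). Hivep2, a zinc finger factor gene, was at 205 and 302 CPM in Altre-KO and at 292 and 267 CPM in Altre-WT. Both sets hold the shape of their KLF gene because they were picked by nearness to it. That shape has Altre-KO below Altre-WT for Klf6 and the lowest value in Altre-KO replicate 1 for Klf13. With 4 libraries and this many genes, close matches describe these libraries alone.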

How the data were processed

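Libraries were made with an mRNA kit from column-extracted RNA, per the labels' protocols. STAR, cutadapt and DESeq2 with build mm10 are named in the submitters' processing notes, without roles or versions, and the sources used here give no counter or annotation. The deposited table holds RPM, scaled by the authors to a total above the reads on listed genes with 0.0001 added (read from the values), and CPM, which has the same sum in each library, per the file headers. It also holds the authors' mean signal per genotype, their log2 fold change, and their p-values, raw and adjusted, of a test without a name in the headers.

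Reads were estimated from the smallest common step of the RPM values. Between 92.9% and 93.8% of values came out whole within 0.02 of a read, so the main test did not use them as counts. The limma-voom alternative was run on them without rounding. limma 3.58.1 (R 4.3.3, variance trend, robust off) was run on log2(CPM + 1) of 10486 genes with at least 4.22 CPM in 2 libraries. Genotype was the only term. The method was also run on simulated libraries, whose settings need not match these, and no result here rests on that run. Fold changes on this scale understate those of low genes. P-values were adjusted by Benjamini-Hochberg over all tested genes. SEs draw on 20.8 prior degrees of freedom, so largely on the trend over all genes. Symbols in capitals were matched to GENCODE M21 for 23519 of 24452 genes. Shared transcript sequence was searched with blastn 2.17.0 (at least 95% identity over 100 bases).

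The KLF genes and the lists were chosen with earlier results of these data known. Named genes were the 8 KLF genes, in each list the 3 tested genes with the smallest p, and for the 2 KLF genes highest in CPM the 3 genes of nearest pattern. Alternatives covered pseudocount, filter, scaling, limma-voom on estimated reads, the replicate block and each library left out.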

Additional observations from a re-analysis of the deposited data

How the results depend on the processing

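No KLF gene passed the adjusted threshold under any of the 12 alternatives, and Klf6 and Klf2 kept the lower and Klf7 and Klf10 the higher values in Altre-KO in all of them. Over these settings the Klf6 log2 fold change ran from -0.49 (upper-quartile scaling, which moved the median of all tested genes to -0.12) to -0.32, with adjusted p between 0.364 and 1.00. Relative to the median of all genes it was -0.37 both with that scaling and as reported. Klf3 was at 0.00050 with median-of-ratios factors, which moved that median to 0.02, and was -0.017 relative to it both there and as reported. Klf16 was at -0.026 with upper-quartile scaling. The directions kept by Klf6, Klf2, Klf7 and Klf10 were partly fixed in advance. Dropping the filter or adding the replicate block leaves each log2 fold change as it is. For Klf6 and Klf2, whose genotypes did not overlap, leaving out a library could not turn the direction either. Of the distances of similar genes, that of Cand2 from Klf6 moved most with the pseudocount (0.070 with 5), and the other 5 lay between 0.02 and 0.06 with either. The genes past the threshold numbered 2, both lower, with a pseudocount of 0.1, and 6, of which 1 was higher, with the replicate number as a block. Same-numbered libraries did not deviate together (Pearson's r of -0.01 over 10486 genes), so the numbers pair nothing that these data show, and with that block Klf6 had a p of 0.0117 and an adjusted p of 0.999. With longest transcripts 4 genes changed places in the order of levels. Scaling without Rn45s, Rpph1 and Rmrp, chosen after seeing the data, left 6 KLF genes lower and 2 higher.

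Leaving out each library, genes past the threshold ran from 6 to 16 (higher 0 to 11, lower 4 to 14), KLF genes lower in Altre-KO from 3 to 6 and higher from 2 to 5. The signs of these log2 fold changes turned in that range: Klf3 -0.27 to 0.21, Klf4 -0.32 to 0.15, Klf12 -0.38 to 0.20, Klf13 -0.39 to 0.15, Klf11 -0.58 to 0.38, Klf16 -0.015 to 0.17, Sp6 -0.070 to 0.53, Itgb7 -0.040 to 0.28, Map2k5 -0.082 to 0.62, Sin3b -0.019 to 0.32, Ep300 -0.90 to 0.085, Crebbp -0.80 to 0.18, Ccl5 -0.37 to 1.77 and Foxp3 -0.91 to 0.11. A genotype then has 1 library, assumed to vary like the rest. Depth limits Klf12 and the 6 KLF genes below the filter.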
